A study of Caenorhabditis elegans with 29 samples.

Results

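Transcript levels are described for 10 repressor genes of Caenorhabditis elegans: lin-35, efl-1, dpl-1, lin-9, lin-37, lin-52, lin-54, lin-36, lin-15B and lin-13. They were chosen by name, as the rows of the deposited table that carry these gene names, and 10 of its 45627 genes did. LIN-35 is the worm's retinoblastoma-like protein. With the E2F-DP transcription factor and the MuvB core it forms the DREAM complex, which sits on promoters and keeps genes off. The wider class to which these genes belong, synMuv B, is named for the extra vulvae that form when a class A and a class B gene are both lost. In somatic tissue this class is known for holding down germline genes, P granule genes among them, and DREAM for holding down cell cycle genes. EFL-1 and DPL-1 are also known to be needed in the germline, where they promote transcription of oogenesis genes.

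RNA was sequenced from gonads dissected from worms kept at 24 °C, in 29 libraries of 10 groups. In the RNAi part all worms were of strain DP132, which carries the insertion edIs6 on chromosome IV: a neuronal reporter, UNC-119 fused to GFP under the unc-119 promoter, with rol-6 as a marker. RNAi worms were fed bacteria making double-stranded RNA against 4 P granule genes, glh-1 and glh-4 (DEAD-box helicases) and pgl-1 and pgl-3 (RNA-binding scaffold proteins), and controls were fed bacteria with the empty vector, from the parents' first larval stage on. The RNAi groups were L4 larvae and Day 1 adults, labelled as without reporter signal, and Day 2 adults whose gonads showed the reporter (GFP-positive) or did not (GFP-negative), each with 3 libraries. Their controls were L4 larvae, Day 1 adults and Day 2 adults, with 3 libraries each. In the mutant part, Day 1 gonads came from pgl-1(ct131) him-3(e1147) IV worms of strain SS0002 (3 libraries), glh-1(gk100) I worms of strain SS0804 (2 libraries) and wild type SS1174 (3 libraries). The pgl-1 strain also carries a him-3 allele, so the effects of the alleles cannot be told apart. A library pooled 75 to 100 control or 125 to 150 RNAi gonads. Adult RNAi gonads were taken from sterile worms, whereas sterility could not be seen at L4, where over 80 percent of sibling adults were sterile. Stunted gonads were taken whole and the others were cut at the bend, so the groups also differ in the piece of tissue sampled.

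Values below are normalized reads, that is reads of a gene in a library divided by the library's size factor. Within a group, libraries are lettered from deepest (a) to shallowest, because replicate numbers could not be assigned. Depth ran from 1027222 to 8686629 reads on genes per library. The targeted pgl-1 averaged 26.5 ± 9.22 normalized reads in Day 1 RNAi gonads and 1959 ± 64.4 in controls, (SD, n = 3 each), and all 4 targets were called lower in each comparison of RNAi with control in the authors' deposited table. In the L4 RNAi group, library b kept more target RNA than the others, with 161 normalized reads of pgl-1 against 18.9 in library a and 8.90 in library c. In pgl-1 mutants pgl-1 stood at 187 ± 105 against 1751 ± 615 in wild type (SD, n = 3 each). In glh-1 mutants glh-1 stood at 2126 ± 261 (SD, n = 2) against 1425 ± 691 in wild type (SD, n = 3), and the authors' deposited table gives its change an adjusted p of 0.32. Reads from the kept part of a deleted gene check nothing about that label. At L4 the deposited fold changes of the 4 targets are smaller than the ratios of the averages: for pgl-1 the authors' deposited table gives −1.44 on the log2 scale, where the averages are 63.0 in RNAi and 2389.97 in control gonads. For L4 the per-library values are therefore the better guide to size.

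The tissue makeup of the libraries moved with the treatment. The authors' germline-enriched genes took 18.95 to 20.6 percent of reads in Day 2 GFP-positive gonads, 27.5 to 29.3 percent in GFP-negative gonads and 36.1 to 38.9 percent in Day 2 controls. At Day 1 they took 26.6 to 33.2 percent in RNAi gonads and 35.4 to 38.4 percent in controls. The authors' soma-specific genes took 7.21 to 8.36 percent of reads in Day 2 GFP-positive gonads, 4.46 to 5.002 percent in GFP-negative gonads and 2.55 to 2.82 percent in Day 2 controls. Summed over 8 neuronal markers, unc-119 of the reporter among them, levels were 3666 to 4551 in Day 2 GFP-positive gonads, 1229.8 to 1604 in GFP-negative gonads and 409 to 482 in Day 2 controls. The 8 muscle markers summed to 7161 to 9135 in GFP-positive gonads, 4770.05 to 5548 in GFP-negative gonads and 514 to 603 in Day 2 controls. Somatic gonad markers (8 genes) came to 1543 to 1637 in GFP-positive gonads, 1256 to 1705 in GFP-negative gonads and 141.9 to 165 in Day 2 controls. Oocyte markers (8 genes) came to 7756 to 11258 in Day 2 GFP-positive gonads, 19244 to 23896 in GFP-negative gonads and 48053 to 57312 in Day 2 controls. Markers of mitotic and meiotic germ cells (8 genes) came to 4408 to 5613 in GFP-positive gonads, 7331 to 7931 in GFP-negative gonads and 12791 to 13064 in Day 2 controls. No marker of these 5 tissues was at 0 in all libraries of a Day 2 group, and germline markers were present in all groups. The libraries of both Day 2 RNAi groups, with more soma-specific and fewer germline reads, are those in which most of the 10 genes were lower. The part of tissue makeup in the results for these repressor genes was not tested. In such bulk samples, fewer cells of a type and less RNA per cell cannot be told apart.

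Per kilobase of exon, lin-13 had the highest level of the 10 genes and lin-15B the lowest in Day 1 controls and in wild type. This order did not hold in every group: in pgl-1 mutants lin-13 stood at 143 per kilobase and lin-37 at 381. In Day 1 controls lin-13 stood at 350.3 normalized reads per kilobase, lin-36 at 317 and lin-54 at 314, against 181 for lin-35 and 59.8 for lin-15B. In wild type the levels were 268 per kilobase for lin-13, 262 for lin-54, 253 for lin-37 and 233 for lin-36, against 130.2 for lin-35 and 39.3 for lin-15B. The authors placed 6 of the 10 genes (lin-35, efl-1, lin-9, lin-36, lin-37 and lin-54) among germline-enriched genes and lin-13 among ubiquitous genes. They placed dpl-1, lin-52 and lin-15B in neither. Between L4 and Day 1 in control gonads, 4 of the 10 rose and 0 fell in a limma voom fit of the recovered reads, in which 5.46 percent of 23454 genes rose and 15.5 percent fell. The rises were dpl-1 (log2 fold change 0.76 ± 0.16 SE, adjusted p = 0.00246), lin-37 (0.87 ± 0.25, 0.0149), lin-36 (0.62 ± 0.19, 0.0229) and lin-54 (0.69 ± 0.21, 0.0234). Scaled on the germline-enriched genes, dpl-1 alone of the 10 was called in this contrast (0.35, adjusted p = 0.0412). Of 23454 genes, that scaling called 260 higher and 4513 lower. Without L4 control library a the fit called 0 of the 10 genes, and without Day 1 control library a it called 1. Between Day 1 and Day 2 controls the fit called 0 of the 10 genes, and 2 of 23454 genes in all, or 0.00853 percent, where 3416 had an unadjusted p under 0.05.

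**Figure D1:**
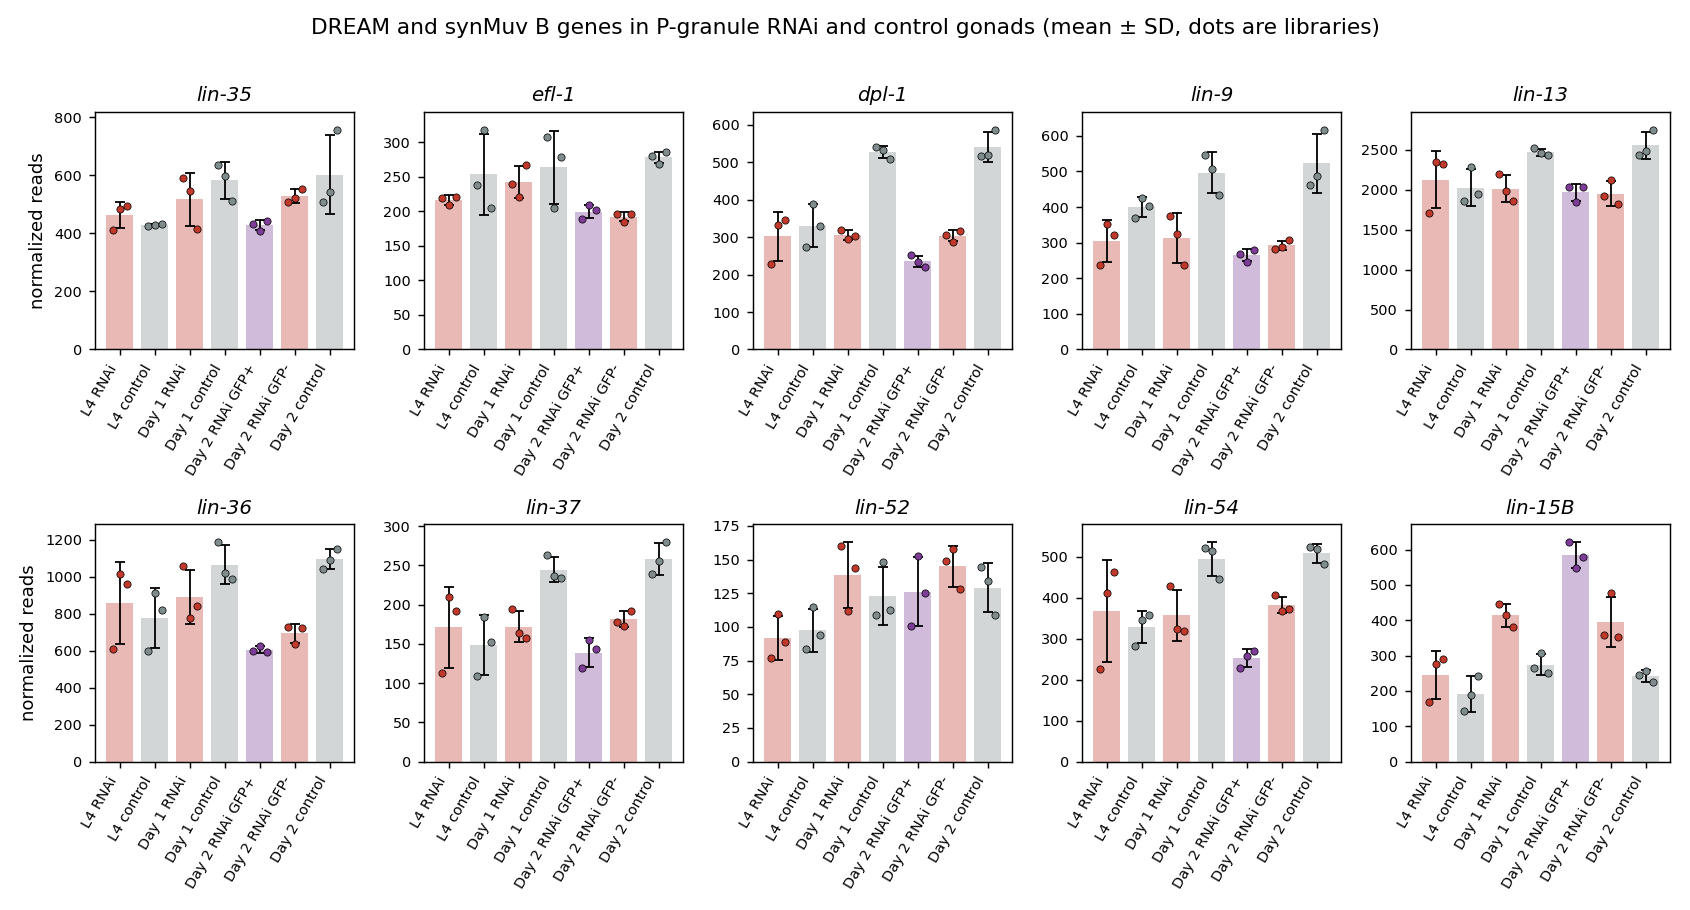
Normalized reads of the 10 repressor genes in the 7 groups of the RNAi part, with each RNAi group left of its control. Bars are means, error bars are SD over 3 libraries and dots are libraries. For dpl-1 the Day 1 RNAi libraries sit between 294 and 319.6 and the Day 1 controls between 509.8 and 540.2, and for lin-15B the order is the other way round.

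The RNAi series compares gonads with and without P granule depletion at successive ages. At L4 none of the 10 repressor genes was called. In adult gonads lin-15B was higher and the others that were called were lower, more of them at Day 2 than at Day 1. In numbers, 0 of 10 were called at L4, where 0.201 percent of all genes tested were called, 0.119 percent higher and 0.0824 percent lower, in the authors' deposited table. At Day 1, 1 rose and 4 fell of 10, where 29.8 percent of all genes tested were called, 19.4 percent rising and 10.4 percent falling, in the authors' deposited table. In Day 2 GFP-negative gonads 1 rose and 8 fell, where 59.7 percent of all genes tested were called, 38.2 percent rising and 21.5 percent falling, in the authors' deposited table. In Day 2 GFP-positive gonads 1 rose and 9 fell, where 67.8 percent of all genes tested were called, 44.3 percent rising and 23.5 percent falling, in the authors' deposited table. With limma voom, which called 16.5 percent of genes at Day 1, 3 of 10 were called (dpl-1, lin-9 and lin-15B), and 1 without Day 1 control library a or without Day 1 RNAi library b. Each of the 10 genes had an adjusted p in each comparison. By library values, 1 of 10 genes had all RNAi libraries above all controls and 5 had all below at Day 1, where 30.2 and 18.2 percent of genes did. In Day 2 GFP-negative gonads these counts were 1 and 7 of 10 (49.8 and 19.5 percent of genes), and in GFP-positive gonads 1 and 8 of 10 (58.6 and 19 percent of genes). At L4 they were 0 and 1 of 10 (4.79 and 4.66 percent of genes).

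Germline-enriched genes were lower in the same adult comparisons. The median log2 fold change of the 10 genes was −0.34 at Day 1, −0.65 in Day 2 GFP-negative and −1.13 in Day 2 GFP-positive gonads in the authors' deposited table. Over all genes tested it was 0.26, 1.296 and 2.08, and over the authors' germline-enriched genes −0.40, −0.65 and −1.25. Of the germline-enriched genes 33.5, 77.2 and 87.8 percent were called lower in the authors' deposited table. At L4 the 10 genes had a median of 0.11, all genes tested 0.01 and germline-enriched genes 0.03. Of the 10 genes 4 lay below the germline-enriched median at Day 1, and 5 in each Day 2 comparison. When libraries were instead scaled on the germline-enriched genes in a limma voom fit, 1 of the 10 was called higher and 1 lower at Day 1, 3 higher and 3 lower in GFP-negative gonads, and 5 higher and 1 lower in GFP-positive gonads. Of 23454 genes, that fit called 3631 higher and 165 lower at Day 1. It called 10200 higher and 749 lower in GFP-negative gonads, and 15279 higher and 945 lower in GFP-positive gonads. The deposited fold changes also lie on a lower scale than the ratios of the deposited averages, by 0.07 at Day 1, 0.19 in Day 2 GFP-negative and 0.46 in Day 2 GFP-positive gonads on the log2 scale. The RNAi comparisons at Day 2 share their control libraries.

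**Figure D2:**
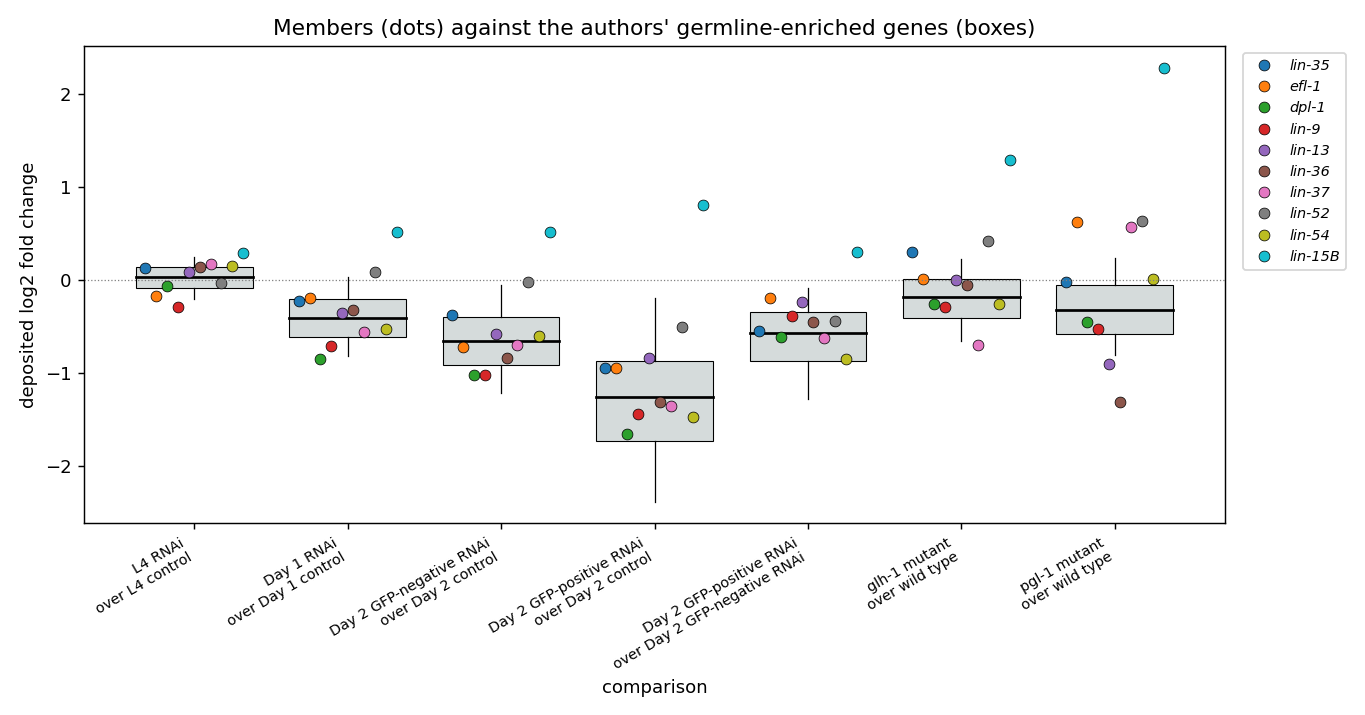
Deposited log2 fold changes of the 10 repressor genes (dots) in the 7 comparisons, over boxes for the authors' germline-enriched genes (line, median; box, quartiles; whiskers, 10th to 90th percentile). The box median is 0.03 at L4 and −1.25 in Day 2 GFP-positive gonads, and the median of the dots is 0.11 at L4 and −1.13 in Day 2 GFP-positive gonads, with the lin-15B dot above 0 throughout.

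The pocket protein gene lin-35 fell in GFP-positive gonads and did not pass at Day 1. At Day 1 it stood at 589.9, 545 and 415 normalized reads in RNAi libraries and 636, 599 and 513 in controls. At Day 2 it stood at 434, 409 and 444 in GFP-positive, 507, 523 and 553 in GFP-negative and 506, 542 and 757 in control libraries. The GFP-positive libraries lay below all controls and below all GFP-negative libraries. The GFP-negative libraries overlapped the controls, of which library c was the highest. In the authors' deposited table lin-35 fell in Day 2 GFP-positive gonads (log2 fold change −0.95, adjusted p = 6.59e-08) and in GFP-negative gonads (−0.37, adjusted p = 0.0406). It did not pass at Day 1 (−0.23, adjusted p = 0.381) or at L4 (0.13, adjusted p = 0.99998). A limma voom fit did not call it in GFP-negative gonads (−0.16, adjusted p = 0.291), and gave 0.01 without library c of the controls and 0.01 when scaled on total reads. Relative to germline-enriched genes lin-35 was higher at Day 2, by 0.28 without and 0.31 with the reporter on the log2 scale.

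Of the E2F-DP pair, dpl-1 fell at both adult ages and efl-1 at Day 2. The DP subunit gene dpl-1 had the most negative deposited fold change of the 10 genes at Day 1 and in GFP-positive gonads. It stood at 319.6, 294 and 302 in Day 1 RNAi libraries against 540.2, 533 and 509.8 in controls. At Day 2 its levels were 252, 233 and 220.5 in GFP-positive, 307, 287 and 317 in GFP-negative and 517, 518 and 586 in control libraries. In both adult stages every RNAi library lay below every control, and the GFP-positive libraries lay below the GFP-negative ones. In the authors' deposited table the log2 fold change was −0.85 at Day 1 (adjusted p = 1.31e-05), −1.02 in GFP-negative gonads (3.5e-14) and −1.66 in GFP-positive gonads (1.03e-36). The fall at each adult stage was also called when libraries were scaled on germline-enriched genes, with limma voom log2 fold changes of −0.45, −0.35 and −0.32 (adjusted p = 0.00503, 0.000649 and 0.00104). At L4 the groups overlapped, at 227, 333 and 345 in RNAi libraries and 274, 387 and 329.9 in controls.

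The E2F subunit gene efl-1 fell at Day 2 in the authors' deposited table, in GFP-negative (−0.72, adjusted p = 3.31e-07) and GFP-positive gonads (−0.94, adjusted p = 3e-11). Its levels were 189, 208 and 202 normalized reads in GFP-positive, 196, 185 and 196 in GFP-negative and 279.6, 269 and 286 in Day 2 control libraries, so that all RNAi libraries lay below all controls. At Day 1 the groups overlapped, with 239, 221 and 268 in RNAi libraries and 308, 205 and 279 in controls. That difference missed the threshold in the authors' deposited table (−0.20, adjusted p = 0.545). Relative to germline-enriched genes efl-1 was 0.31 higher on the log2 scale in GFP-positive and 0.07 lower in GFP-negative gonads.

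Of the MuvB core genes, lin-9 and lin-54 fell in all adult RNAi comparisons, and lin-37 in both at Day 2, while lin-52 was called in GFP-positive gonads alone. LIN-54 is the subunit that binds DNA. At Day 1 lin-54 stood at 429, 324 and 319 in RNAi libraries against 523, 514 and 446 in controls. At Day 2 it stood at 228, 257 and 271 in GFP-positive, 406, 368 and 372 in GFP-negative and 523, 519 and 482 in control libraries. The 3 Day 2 groups did not overlap, with the GFP-positive libraries lowest. In the authors' deposited table the log2 fold change of lin-54 was −0.52 at Day 1 (adjusted p = 0.032), −0.60 in GFP-negative gonads (9.34e-06) and −1.48 in GFP-positive gonads (3.69e-24). The fall in GFP-negative gonads turned to 0.06 relative to germline-enriched genes, while the others stayed negative (−0.12 and −0.22). A limma voom fit did not call lin-54 at Day 1 (adjusted p = 0.0896).

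LIN-9 is a core subunit of the same complex. Its gene lin-9 was the only one of the 10 whose L4 RNAi libraries all lay below the L4 controls, at 238, 351 and 323 against 370.3, 425 and 403 normalized reads, where 4.66 percent of genes showed this. The L4 difference missed the threshold in the authors' deposited table (−0.28, adjusted p = 0.99998). At Day 1 lin-9 stood at 376, 324 and 237 in RNAi libraries against 547, 507 and 434 in controls. At Day 2 levels were 269, 247 and 279 in GFP-positive, 281, 289 and 307 in GFP-negative and 462, 488 and 617 in control libraries. Both adult stages showed the RNAi libraries below all controls. By the authors' deposited table lin-9 changed by −0.71 (adjusted p = 0.00671), −1.02 (4.57e-11) and −1.44 (4.02e-20) on the log2 scale in Day 1, Day 2 GFP-negative and Day 2 GFP-positive gonads. Relative to germline-enriched genes these were −0.30, −0.37 and −0.18.

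LIN-37 is a further core subunit, and LIN-52 is the subunit that links MuvB to LIN-35. At Day 1 lin-37 stood at 195, 164 and 158 in RNAi libraries against 264, 237 and 234 in controls, without overlap, but missed the threshold in the authors' deposited table (−0.56, adjusted p = 0.0527). At Day 2 it stood at 118.6, 155 and 144 in GFP-positive, 178, 173 and 192 in GFP-negative and 238, 256 and 279.9 in control libraries. It fell there in the authors' deposited table, with log2 fold changes of −1.36 in GFP-positive (adjusted p = 1.13e-15) and −0.70 in GFP-negative gonads (adjusted p = 4.86e-06). Relative to germline-enriched genes these were −0.10 and −0.04. For lin-52 the Day 2 groups overlapped, at 101, 152 and 125 in GFP-positive, 149, 158 and 128 in GFP-negative and 144, 134 and 109 in control libraries. The authors' deposited table called lin-52 lower in GFP-positive gonads (−0.50, adjusted p = 0.0312), whereas the ratio of the deposited averages was −0.03 and a limma voom fit gave −0.08 (adjusted p = 0.738). At Day 2 without GFP (−0.03, adjusted p = 0.905) and at Day 1 (0.09, adjusted p = 0.846) lin-52 missed the threshold in the authors' deposited table. The exons of lin-52 share 50 bases with arl-5, those of lin-13 share 44 with a pseudogene and those of lin-35 share 29 with hmg-3. These overlapping genes lie on the other strand, and this strandless library type cannot separate their reads.

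LIN-36, a protein with a THAP domain that acts with DREAM, had a gene that fell at Day 2. At Day 1 lin-36 stood at 1059, 778 and 841 in RNAi libraries and 1189, 1021 and 989 in controls, which overlapped, and it missed the threshold in the authors' deposited table (−0.32, adjusted p = 0.138). At Day 2 it stood at 599, 626 and 593 in GFP-positive, 727, 637 and 723 in GFP-negative and 1043, 1093 and 1149.96 in control libraries, all 3 groups apart. Its log2 fold change was −1.32 in GFP-positive gonads (adjusted p = 6.02e-32) and −0.84 in GFP-negative gonads (adjusted p = 1.44e-10) by the authors' deposited table. Relative to germline-enriched genes these were −0.06 and −0.19. In a limma voom fit scaled on germline-enriched genes the GFP-positive value turned to 0.01.

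The zinc finger protein LIN-13 is known to bring the HP1 protein HPL-2 to chromatin. Its gene lin-13 stood at 2192, 1986 and 1863 in Day 1 RNAi libraries against 2519, 2459 and 2434 in controls. At Day 2 it was at 2029, 1848 and 2032 in GFP-positive, 1921, 2116 and 1816 in GFP-negative and 2432, 2489 and 2749 in control libraries. RNAi libraries lay below all controls at both adult stages, while the Day 2 RNAi groups overlapped each other. By the authors' deposited table lin-13 changed by −0.36 at Day 1 (adjusted p = 0.0171), −0.58 in GFP-negative gonads (1.49e-07) and −0.84 in GFP-positive gonads (4.23e-13) on the log2 scale. Relative to germline-enriched genes lin-13 turned higher in all 3, by 0.05, 0.07 and 0.42.

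The gene lin-15B, for another THAP domain protein of the class, was the 1 of the 10 to rise under RNAi. At Day 1 it stood at 447, 415 and 381 in RNAi libraries against 264, 308 and 252 in controls. At Day 2 it stood at 622, 549 and 580.3 in GFP-positive, 359, 478 and 352 in GFP-negative and 244, 258 and 224 in control libraries. Every adult RNAi library lay above every control, and the GFP-positive libraries lay above the GFP-negative ones. At L4 the groups overlapped, at 168, 276 and 291 in RNAi and 143, 189.7 and 243 in control libraries. In the authors' deposited table lin-15B rose at Day 1 (0.52, adjusted p = 0.0315), in Day 2 GFP-negative (0.51, adjusted p = 0.00192) and in Day 2 GFP-positive gonads (0.80, adjusted p = 8.85e-09). It was also higher and called when limma voom was scaled on total reads or on germline-enriched genes, at 0.96, 1.19 and 2.14 on the log2 scale for germline scaling. With a library left out in turn, 3 of 6 limma voom fits called lin-15B at Day 1 and 6 of 6 in each Day 2 comparison. At Day 2 the soma-specific share of reads and the neuronal, muscle and somatic gonad marker sums given above were higher in the same libraries. Intestinal markers (8 genes) summed there to 95145 to 131071 in GFP-positive, 67598 to 88699 in GFP-negative and 11102 to 17557 in control libraries. Sperm markers (8 genes) summed to 284 to 1019 in GFP-positive, 822 to 1017 in GFP-negative and 2.49 to 5.76 in Day 2 control libraries. At Day 1 soma-specific genes took 3.74 to 4.49 percent of reads in RNAi libraries and 2.82 to 2.88 percent in controls. There neuronal markers summed to 908 to 1047 in RNAi libraries and 376 to 510.02 in controls, muscle markers to 2755 to 5120 in RNAi libraries and 587 to 1572 in controls, and somatic gonad markers to 592 to 918 in RNAi libraries and 153 to 294 in controls. These groups did not overlap. Hypodermal markers (8 genes) did overlap at Day 1, at 760 to 1311 in RNAi libraries and 564 to 793 in controls. At Day 2 the hypodermal sums were 1037 to 1109 in GFP-positive, 658 to 845 in GFP-negative and 540 to 580 in control libraries. In these Day 2 controls 1 of the 8 was at 0. Intestinal markers summed to 55151 to 212489 in Day 1 RNAi libraries and 24619 to 48840 in controls, and sperm markers to 1393 to 3424 in RNAi libraries and 2.52 to 27.3 in controls, where 2 of the 8 were at 0. The part of these in the rise of lin-15B was not tested.

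The neighbour lin-15A, a class A gene that lies after lin-15B on the same strand and shares 5 exon bases with it, was looked at after its values were seen. It averaged 205 ± 7.48 in Day 2 GFP-positive, 116 ± 37.9 in GFP-negative and 68.2 ± 9.10 in Day 2 control gonads (SD, n = 3 each). Like lin-15B it rose in GFP-positive (1.11, adjusted p = 1.13e-09) and GFP-negative gonads (0.56, adjusted p = 0.0301) by the authors' deposited table. At Day 1 lin-15A did not pass (0.19, adjusted p = 0.671) in the authors' deposited table.

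**Figure D3:**
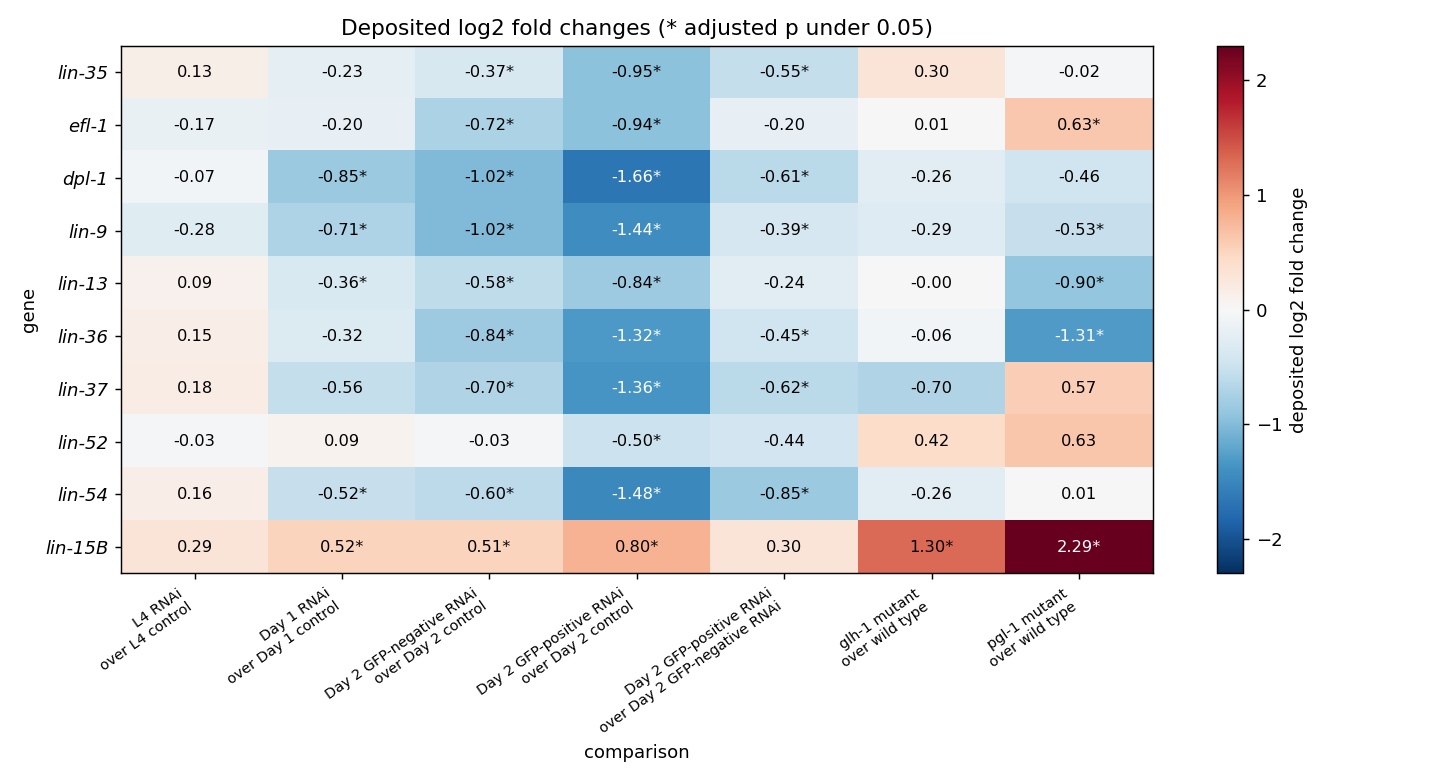
Deposited log2 fold changes of the 10 repressor genes (rows) in the 7 comparisons (columns), with the value printed in each cell, blue for lower, red for higher and an asterisk for a deposited adjusted p under 0.05. The lin-15B row is positive in all 7 columns, from 0.29 at L4 to 2.29 in pgl-1 mutants, while dpl-1 is negative in all 7.

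GFP-positive gonads can be set directly against GFP-negative gonads of the same age and treatment. Of the 10 genes 6 were lower and 0 higher, where 38 percent of all genes tested were called, 18.6 percent lower and 19.4 percent higher, in the authors' deposited table. Of the germline-enriched genes 69.3 percent were called lower there. The lower genes were lin-54 (−0.85, adjusted p = 1.61e-07), lin-37 (−0.62, 0.00157), dpl-1 (−0.61, 0.000116), lin-35 (−0.55, 0.000124), lin-36 (−0.45, 0.00263) and lin-9 (−0.39, 0.0191) in the authors' deposited table. The median of the 10 was −0.45, that of germline-enriched genes −0.57 and that of all genes tested 0.04 in the authors' deposited table. By library values 6 of 10 genes had all GFP-positive libraries below all GFP-negative ones and 1 had all above, where 16.6 and 36.7 percent of genes did. Here the deposited scale lies 0.25 below the ratio of the averages on the log2 scale, and a limma voom fit called 3 of the 10, where it called 20.9 percent of genes. These were lin-54 (−0.63, adjusted p = 0.00499), dpl-1 (−0.35, 0.0486) and lin-15B, which was higher (0.57, 0.00164). In the authors' deposited table the rise of lin-15B did not pass (0.30, adjusted p = 0.0755). Scaled on germline-enriched genes, lin-35, dpl-1, lin-9 and lin-36 turned to 0.09, 0.02, 0.24 and 0.18, and only lin-54 and lin-37 of the 6 stayed negative (−0.25 and −0.02).

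Whether the RNAi effect itself differed between stages was tested in the limma voom fit. Between Day 1 and L4 the effect did not differ for any of the 10 genes at an adjusted p under 0.05, where 4.62 percent of 23454 genes were called and 4247 had an unadjusted p under 0.05. The largest differences were those of lin-37 (−0.73 ± 0.34 SE, adjusted p = 0.262) and dpl-1 (−0.67 ± 0.23, adjusted p = 0.118). Without L4 RNAi library a 5 of the 10 were called, and with quality weights per library 2 were. That library stood apart in tissue makeup, with 22.8 percent of reads on germline-enriched genes against 32.8 and 33.3 percent in the other L4 RNAi libraries, and 6.36 percent on soma-specific genes against 3.18 and 3.57 percent. The part of this in the calls was not tested. Between Day 2 GFP-negative and Day 1 gonads 0 of the 10 were called and 1 of 23454 genes in all, or 0.00426 percent, with 1605 at an unadjusted p under 0.05. The numbers of called genes at L4, Day 1 and Day 2 are counts, which do not show that the effects differ.

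The mutant gonads were taken at Day 1. In pgl-1 mutants the authors' deposited table also called pgl-3 (−1.19, adjusted p = 1.45e-05), glh-1 (−0.91, 0.0194) and glh-4 (−0.74, 0.0119) lower than in wild type. In pgl-1(ct131) him-3(e1147) gonads 2 of the 10 genes rose and 3 fell, where 31.1 percent of all genes tested were called, 22.3 percent rising and 8.84 percent falling, in the authors' deposited table. Of the germline-enriched genes 25.6 percent were called lower there. In limma voom fits 3 of the 10 were called without wild-type library a or pgl-1 mutant library b, and 7 without pgl-1 mutant library c. Again lin-15B rose: it stood at 844, 964 and 854 normalized reads in pgl-1 mutant libraries against 168, 129 and 244 in wild type, with no overlap, as for 34.1 percent of genes. Its log2 fold change was 2.29 (adjusted p = 8.58e-19) in the authors' deposited table. The neighbour lin-15A rose as well (2.15, adjusted p = 3.28e-09) in the authors' deposited table. The E2F gene efl-1 was called higher too (0.63, adjusted p = 0.0451) in the authors' deposited table, but its libraries overlapped, at 319.95, 404 and 236 in pgl-1 mutants and 200.2, 239 and 177 in wild type. A limma voom fit did not call efl-1 (0.62, adjusted p = 0.0509), but called it higher when scaled to total reads (0.88, adjusted p = 0.00688) and on germline-enriched genes (0.96, adjusted p = 0.009). Under these scalings it also called lin-52 higher (0.98 and 1.077, adjusted p = 0.0194 and 0.0138), which it did not otherwise (0.73, adjusted p = 0.0608).

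Of the 10 genes lin-36 had the most negative deposited fold change in pgl-1 mutants, at 201, 328 and 410.1 normalized reads in mutant libraries against 749.9, 725 and 879.8 in wild type. For lin-13 the levels were 757, 941 and 1322 in pgl-1 mutants and 2043, 1634 and 1990.3 in wild type, and for lin-9 they were 299.99, 244 and 293 in pgl-1 mutants and 391.6, 398 and 421 in wild type. For these 3 genes every mutant library lay below every wild-type library, as for 14 percent of genes. Their log2 fold changes were −1.31, −0.90 and −0.53 (adjusted p = 1.53e-05, 0.00124 and 0.0175) in the authors' deposited table. Scaled on germline-enriched genes, whose median here was −0.33, lin-36 and lin-13 were still called (−1.11 and −0.66) and lin-9 was not (−0.17, adjusted p = 0.412). The fall of dpl-1 seen under RNAi did not pass here (−0.46, adjusted p = 0.149), with levels of 262, 272 and 284 in pgl-1 mutants and 380.3, 261 and 493 in wild type. The pgl-1 libraries a and b stood apart from c for lin-37, at 392.3, 523 and 158 against 262, 243 and 210.4 in wild type, and lin-37 did not pass (0.57, adjusted p = 0.208) in the authors' deposited table.

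In glh-1(gk100) gonads lin-15B was the 1 called gene of the 10, where 9.15 percent of all genes tested were called, 6.68 percent rising and 2.47 percent falling, in the authors' deposited table. It stood at 388 and 537 in the 2 mutant libraries against 168, 129 and 244 in wild type (log2 fold change 1.296, adjusted p = 0.00109, in the authors' deposited table). By library values 2 of the 10 genes, lin-35 and lin-15B, lay above all wild-type libraries, as 26 percent of genes did, and 3, lin-9, lin-37 and lin-54, lay below all of them, as 18.7 percent did. The other 9 genes lay between −0.70 (lin-37, adjusted p = 0.0721) and 0.42 (lin-52, adjusted p = 0.456) in the authors' deposited table. In data simulated for this contrast, with 2 mutant libraries and only a small set of 14766 genes changed, the limma voom fit found 8 percent of 2-fold changes. Oocyte markers summed to 19874 to 24854 in pgl-1 mutant, 26224 to 28055 in glh-1 mutant and 36845 to 40027 in wild-type libraries. Intestinal markers summed to 34781 to 54338 in pgl-1 mutants, 15806 to 64982 in glh-1 mutants and 10269 to 13601 in wild type. Sperm markers summed to 118.8 to 417 in pgl-1 mutants, 32.8 to 112.3 in glh-1 mutants and 0 to 3.9 in wild type, where 3 of the 8 were at 0. Germline-enriched genes took 29.8 to 34.3 percent of reads in pgl-1 mutants and 35.1 to 38.6 percent in wild type. In glh-1 mutants they took 33.7 to 36.03 percent, which overlapped wild type. Soma-specific genes took 3.71 to 4.31 percent of reads in pgl-1 mutants and 3.62 percent in both glh-1 libraries, against 2.42 to 2.84 percent in wild type. The part of these in the falls of lin-36, lin-13 and lin-9 and in the rise of lin-15B was not tested. Both mutants share the wild-type libraries.

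**Figure D4:**
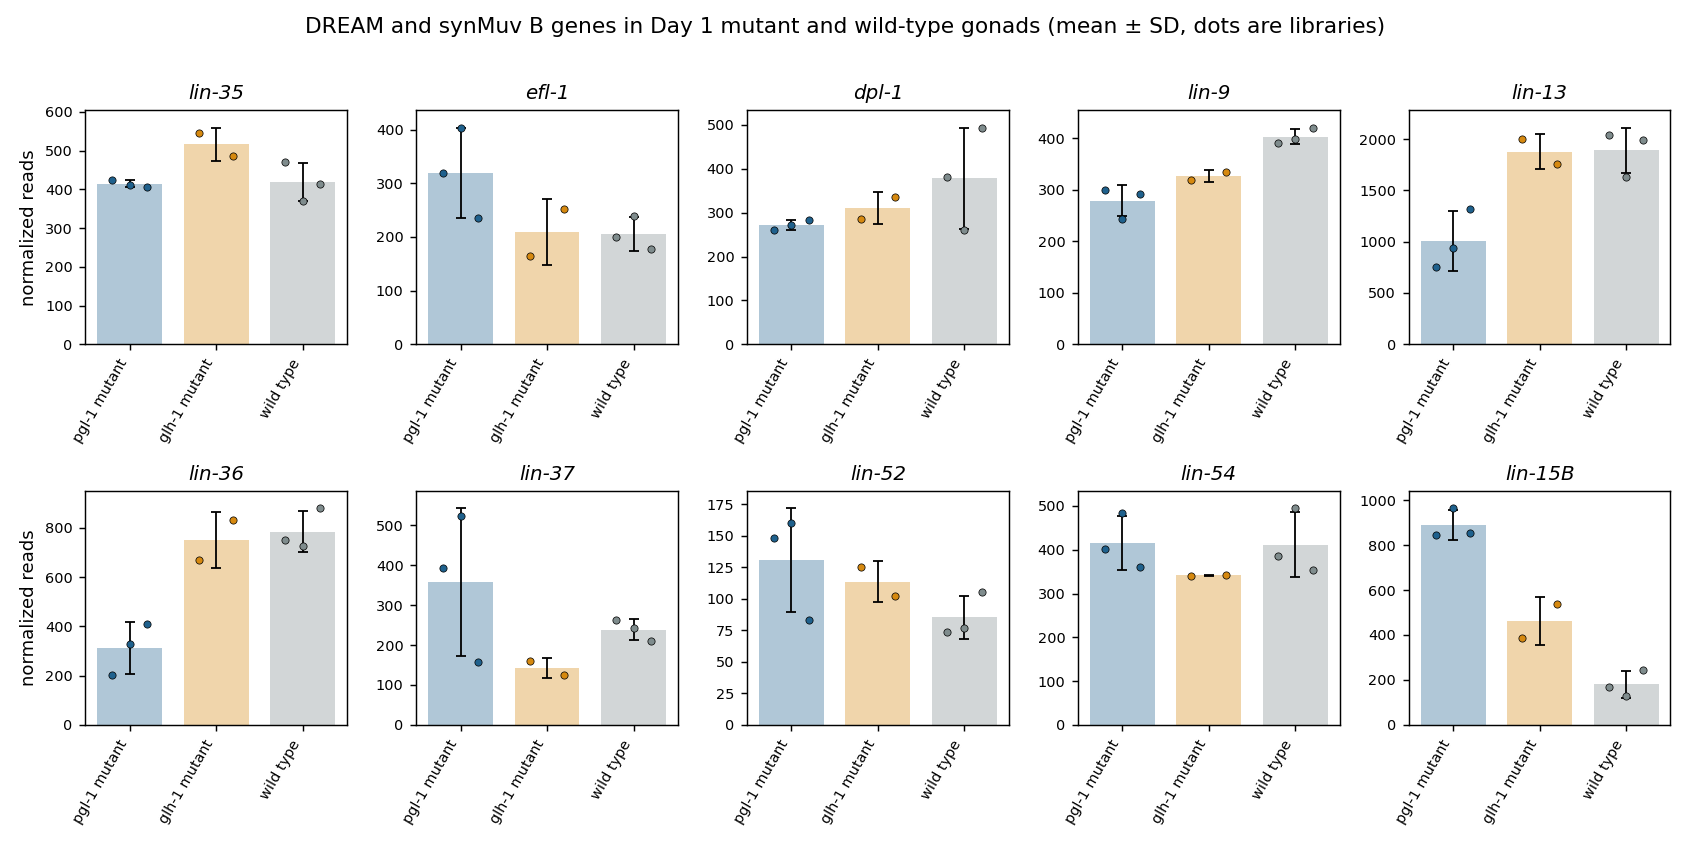
Normalized reads of the 10 repressor genes in Day 1 gonads of pgl-1 mutants (3 libraries), glh-1 mutants (2 libraries) and wild type (3 libraries). Bars are means, error bars SD and dots libraries. The mutant libraries lie above wild type for lin-15B, at 388 or more against 244 or less, and the pgl-1 mutant libraries lie below wild type for lin-36, at 410.1 or less against 725 or more.

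The genes around DREAM were described from 6 lists. Their counts stand against 10.4, 21.5 and 23.5 percent of all genes tested called lower, and 33.5, 77.2 and 87.8 percent of germline-enriched genes, at Day 1, in Day 2 GFP-negative and in Day 2 GFP-positive gonads in the authors' deposited table. Cell cycle and DNA replication genes, many of them known DREAM targets, fell with the repressors: 15 of 20 at Day 1, 19 in Day 2 GFP-negative and 20 in GFP-positive gonads, with 0 rising, in the authors' deposited table. Their median log2 fold changes were −0.55, −0.82 and −1.53 in the authors' deposited table. The B-type cyclin gene cyb-3 averaged 935 ± 77.2 in Day 2 GFP-positive libraries and 3006 ± 379 in Day 2 controls (SD, n = 3 each). For rnr-1, which encodes a ribonucleotide reductase subunit, the averages were 959 ± 86.6 in GFP-positive libraries and 2458 ± 86.0 in Day 2 controls (SD, n = 3 each). For dut-1, which encodes dUTPase, they were 387 ± 74.4 in GFP-positive libraries and 1293 ± 99.1 in Day 2 controls (SD, n = 3 each). On the log2 scale these differences are −2.15, −1.82 and −2.20 by the authors' deposited table. When scaled on germline-enriched genes, 10 of the 20 were lower and 6 higher in GFP-positive gonads, with cyb-3, rnr-1 and dut-1 still lower (−0.84, −0.52 and −0.94). Under the same scaling 9 of 20 were lower and 2 higher in GFP-negative gonads, and 2 lower and 0 higher at Day 1. Of 23454 genes, it called 945 lower and 15279 higher in GFP-positive gonads. In GFP-negative gonads it called 749 lower and 10200 higher, and at Day 1 165 lower and 3631 higher. In pgl-1 mutants 8 of the 20 fell and 0 rose in the authors' deposited table, where 8.84 percent of all genes tested fell. Of germline-enriched genes 25.6 percent did. In pgl-1 mutants limma voom called 14 of the 20 lower, and 4 when scaled to total reads or on germline-enriched genes. Of 15187 genes it called 1297 lower, and 514 and 382 under these scalings.

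Germline genes known to come on in the soma of synMuv B mutants were lower as well, 8 of 10 at Day 1 and 10 of 10 in each Day 2 comparison in the authors' deposited table. This list holds the RNAi targets pgl-3, glh-1 and pgl-1, so its direction is in part set by the treatment, and 5 of its 10 genes were called lower at L4. Of all genes tested 0.0824 percent were called lower at L4, and of germline-enriched genes 0.39 percent. In pgl-1 mutants 10 of 10 fell in the authors' deposited table, pgl-1 and him-3, which are mutant in that strain, among them. There 8.84 percent of all genes tested and 25.6 percent of germline-enriched genes fell. Not itself a named target, him-3, whose product lies on the axis of meiotic chromosomes, averaged 8.39 ± 7.28 in Day 2 GFP-positive libraries and 404 ± 58.5 in Day 2 controls (SD, n = 3 each). It was already lower at L4, at 48.9 ± 25.8 in RNAi and 478 ± 50.8 in control libraries (SD, n = 3 each). There the authors' deposited table gives him-3 −2.17 on the log2 scale (adjusted p = 2.03e-08), and −2.17 for the target pgl-3. The cause of this L4 fall of him-3 was not tested. With germline scaling, 9 of the 10 were called lower and 0 higher in GFP-positive gonads, where 945 of 23454 genes were lower and 15279 higher.

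Other synMuv B and nucleosome remodelling genes fell in 5 of 15 cases at Day 1 and in 12 of 15 in both Day 2 comparisons, with 1 rise at Day 1 and 1 in GFP-positive gonads, in the authors' deposited table. The MuvB and chromatin subunit gene lin-53 averaged 762 ± 13.3 in GFP-positive libraries and 1019 ± 77.3 in Day 2 controls (SD, n = 3 each). The SUMO-conjugating enzyme gene ubc-9 averaged 480.2 ± 46.9 in GFP-positive libraries and 959 ± 26.1 in Day 2 controls (SD, n = 3 each). The Mi-2 remodeller gene let-418 averaged 2445 ± 200.4 in GFP-positive libraries and 2534 ± 126 in Day 2 controls (SD, n = 3 each). All were called lower, with deposited values of −0.88, −1.46 and −0.51 on the log2 scale in the authors' deposited table. In this comparison the deposited scale is shifted by −0.46 on the log2 scale against the ratios of the averages. The let-418 averages lie closer to each other than either SD. The 12 of 15 lie near the 77.2 and 87.8 percent of germline-enriched genes called lower there. Unscaled limma voom called 1 higher and 1 lower at Day 1, 1 higher and 7 lower in GFP-negative gonads and 4 higher and 7 lower in GFP-positive gonads. With germline scaling the direction of the list flipped, to 5 higher and 1 lower of 15 in GFP-negative gonads and to 12 higher and 1 lower in GFP-positive gonads, there with lin-53 and let-418 higher and ubc-9 lower. Of 23454 genes, this scaling called 10200 higher and 749 lower in GFP-negative gonads, and 15279 higher and 945 lower in GFP-positive gonads. Most genes were thus called higher under it in GFP-positive gonads.

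The class A and C genes (7 of 8 in the table) fell in 3, 6 and 6 cases at Day 1, in Day 2 GFP-negative and in Day 2 GFP-positive gonads, with lin-15A the 1 rise in each Day 2 comparison, in the authors' deposited table. Among them lin-38, and trr-1 and ssl-1 of a MYST-family acetyltransferase complex had values of −1.20, −0.77 and −0.68 on the log2 scale in GFP-positive gonads in the authors' deposited table. Chromatin genes known to oppose synMuv B fell in 2, 7 and 6 of 8 cases in the authors' deposited table, where 10.4, 21.5 and 23.5 percent of all genes tested fell. These included mes-6, of the worm's Polycomb complex (−2.09 in GFP-positive gonads), the remodeller gene isw-1 (−1.12) and the histone methyltransferase gene mes-4 (−1.35) in the authors' deposited table. Scaled on germline-enriched genes, 6 of 7 class A and C genes were called higher and 0 lower in GFP-positive gonads, with lin-38, trr-1 and ssl-1 at 0.12, 0.57 and 0.66. In GFP-negative gonads 2 of the 7 were then higher and 0 lower, and of the opposing chromatin genes 2 of 8 were higher and 1 lower. In GFP-positive gonads 5 of the 8 opposing genes were then higher and 1 lower, with isw-1 at 0.19, mes-4 at −0.03 and mes-6 still called lower (−0.76). Of 23454 genes, this scaling called 15279 higher and 945 lower in GFP-positive gonads, and 10200 higher and 749 lower in GFP-negative gonads.

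The list of G1 phase regulators split. At Day 2, 4 of 8 fell and 2 rose in GFP-negative gonads, and 5 fell and 3 rose in GFP-positive gonads, in the authors' deposited table. Of all genes tested 21.5 and 23.5 percent fell and 38.2 and 44.3 percent rose in these comparisons. When scaled on germline-enriched genes, 4 were higher and 0 lower in GFP-negative gonads, and 7 higher and 1 lower in GFP-positive gonads. Of 23454 genes, this scaling called 10200 higher and 749 lower in GFP-negative gonads, and 15279 higher and 945 lower in GFP-positive gonads. The cyclin E gene cye-1 averaged 430.1 ± 51.0 in GFP-positive libraries and 972 ± 191 in Day 2 controls (SD, n = 3 each) and was lower under the germline scaling too (−0.32). The gene fzr-1, for a Cdh1-like activator of the anaphase-promoting complex, averaged 471 ± 33.7 in GFP-positive libraries and 655 ± 22.3 in Day 2 controls (SD, n = 3 each) and turned higher under it (0.40). The gene cki-1, for a CIP/KIP inhibitor of cyclin-dependent kinases, averaged 100.4 ± 11.9 in GFP-positive and 15.8 ± 3.23 in GFP-negative gonads against 2.84 ± 0.747 in controls (SD, n = 3 each). Its log2 fold changes were 4.61 (adjusted p = 8.29e-30) and 2.19 (adjusted p = 7.16e-05) in the authors' deposited table.

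The 10 repressor genes did not share a single profile over the 10 group averages. The correlation of a gene's log2 average with the median of the other 9, centred within the RNAi and the mutant part, was 0.81 for dpl-1, 0.78 for lin-54, 0.69 for lin-35 and 0.65 for lin-9. It was 0.39 for lin-37, 0.36 for lin-36, 0.31 for efl-1 and for lin-13, −0.03 for lin-52 and −0.50 for lin-15B. Among 5004 other genes with a mean of at least 100 normalized reads, those with the most similar profile to the median of the 10 were C34E10.8 (0.993), M04F3.5 (0.987), T05E7.3 (0.985), T07F8.4 (0.985) and arrd-13 (0.984). These correlations over 10 group averages, which share libraries and scale, are descriptions.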

How the data were processed

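Gonad RNA was depleted of ribosomal RNA and sequenced with a kit that keeps no strand, per the labels' protocols. The submitters' processing notes name TopHat2 and DESeq2; their versions, any counting tool and any genome build: not given in the sources used here. The deposited table holds group averages of normalized read signal, and for 7 comparisons the authors' mean signal, log2 fold change and adjusted p-value. Its 0 or 1 gene categories are other deposited labels, set by the authors. Deposited calls (adjusted p under 0.05) are the main result.

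The averages are sums of whole reads divided by size factors, so whole reads per library were recovered from them. The recovered values matched 100 percent of the deposited means checked within a relative gap of 1e-06. Simulated data were recovered without error. They were made for only some of the groups and with high averages capped, so they do not test the highest genes. Replicate numbers of the recovered libraries are unknown. Where several solutions remained, the deposited mean signal chose among them, for up to 12 genes in a group. In each group 0 to 5 genes were left out, which held 0 to 6.61 percent of its average reads. Their averages were too high to be searched, or no single solution could be chosen. A marker among them would be missing from the marker sums of that group. Reads were fitted with limma voom (limma 3.58.1, R 4.3.3, keeping genes that averaged 1 normalized read or more in some group) for the 4 contrasts with no deposited columns and as an alternative for the others. The fit was tested on simulated data, with a single run per contrast in which only a small set of genes was changed. Of its calls there, 19.1 percent were false for GFP-positive gonads over control (21214 genes), 8.8 percent for GFP-negative gonads (21224 genes), 18.97 percent for Day 2 over Day 1 controls (21221 genes) 8.82 percent for pgl-1 mutants (14760 genes) and 9.65 percent for GFP-positive over GFP-negative gonads (21214 genes), all above the 5 percent aimed at. In the other comparisons simulated the share was 0 to 2.78 percent. In the real data the fit called 10896 genes higher and 3728 lower of 23454 for GFP-positive gonads over control. Far more genes changed there than in the simulation, so the simulated shares are not error rates of the real calls.

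Total reads on genes per library ran from 1027222 to 8686629, which limits precision for the lower genes. Nothing in the labels says that replicates came from separate cultures, so p-values measure only the spread between these samples. Gene lengths and overlaps came from the WBcel235 annotation, release 115, in which 45067 of 45627 identifiers matched. Within each of the 6 lists beside the repressors, the 3 genes called in the most RNAi comparisons, ties broken by size of change, were named; lin-15A was named after its values were seen. The repressor genes and the lists were chosen with earlier results of these data known. Alternatives were other scalings, no filter, quality weights per library, leaving out each library, and centring on germline-enriched genes. No column of per-sample values was left unused.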

Additional observations from a re-analysis of the deposited data

How the results depend on the processing

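No paired analysis was possible because the deposited columns are group averages that carry no replicate numbers. Over all alternatives for the single genes, 1238 values were labelled the same, 32 gained a call, 31 reversed and the rest lost the call. The same label does not mean that direction was kept, since genes that were not called could change sign under it. For lin-52 in GFP-negative gonads the deposited log2 fold change was −0.03 and the ratio of the averages 0.17. Ratios of averages and median-subtracted values have no p-value of their own, so they could not gain or lose a call. The cause of the changes was not tested. At Day 1, 5 of the 10 genes were called in the deposited test, 3 with limma voom, 3 with no filter, 2 scaled to total reads and 2 scaled on germline-enriched genes. In Day 2 GFP-negative gonads 9 became 5 scaled to total reads. In GFP-positive gonads 10 became 6 scaled on germline-enriched genes. For GFP-positive over GFP-negative gonads 6 became 3 with limma voom, 3 scaled on germline-enriched genes and 2 with no filter. For Day 1 over L4 controls 4 became 1 scaled on germline-enriched genes and 8 with quality weights, and for the difference between the Day 1 and L4 effects 0 became 2 with quality weights.

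Leaving out 1 library gave 0 to 0 calls at L4, 1 to 3 at Day 1, 7 to 8 in GFP-negative, 9 to 9 in GFP-positive gonads, 2 to 2 between these, 1 to 1 in glh-1 mutants, 3 to 7 in pgl-1 mutants, 0 to 5 for Day 1 over L4 controls, 0 to 0 for Day 2 over Day 1 controls, 0 to 5 for the Day 1 and L4 effects and 0 to 0 for the Day 2 and Day 1 effects. At Day 1 the count was 1 without Day 1 control library a or Day 1 RNAi library b and 2 without Day 1 RNAi library a; in pgl-1 mutants it was 3 without wild-type library a or pgl-1 mutant library b; for Day 1 over L4 controls it was 0 without L4 control library a and 1 without Day 1 control library a; and for the Day 1 and L4 effects it was 5 without L4 RNAi library a. All of these fits used limma voom, with spread pooled over groups.

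Scaled on germline-enriched genes, log2 fold changes reversed to 0.0773 for lin-13 at Day 1. In GFP-negative gonads they reversed to 0.32 for lin-35, 0.10 for lin-13, 0.67 for lin-52 and 0.0800 for lin-54, and in GFP-positive gonads to 0.40 for lin-35, 0.38 for efl-1, 0.49 for lin-13, 0.0135 for lin-36 and 0.79 for lin-52. Between these groups they reversed to 0.0857 for lin-35, 0.43 for efl-1, 0.0242 for dpl-1, 0.24 for lin-9, 0.39 for lin-13 and 0.18 for lin-36. Subtracting the germline-enriched median reversed lin-13 at Day 1 (0.0477), lin-35, lin-13 and lin-54 in GFP-negative gonads (0.28, 0.0741 and 0.0555), lin-35, efl-1, lin-13 and lin-52 in GFP-positive gonads (0.31, 0.31, 0.42 and 0.75), and lin-35, lin-9 and lin-36 between them (0.0252, 0.18 and 0.12). For lin-35 in GFP-negative gonads, total-read scaling gave 0.0062, and leaving out 1 library gave −0.281 (Day 2 control library a) to 0.00616 (Day 2 control library c). For lin-52 in GFP-positive gonads, leaving out 1 library gave −0.227 (GFP-positive library b) to 0.112 (GFP-positive library a), also above 0 without Day 2 control library a.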
